A study of Mus musculus with 2 samples.

Results

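The 10 genes described here encode secretory products that are known from the dorsal and anterior lobes of the mouse prostate and from the seminal vesicle, together with the gasdermin gene Gsdma. They were chosen by symbol, as Tgm4, Sval1, Sval2, Ceacam10, Svs2, Svs3a, Svs4, Svs5, Svs6 and Gsdma, through the RefSeq accession that the array gives for each probe. They are 10 of the 31993 genes or unnamed transcripts on the array. All 10 symbols had a probe among the 41174 different non-control probes, and 11 probes stood for them, 2 for Gsdma and 1 for each other gene. Of the 10 genes, 3 were detected and 7 were not.

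The samples were a pool made from 6 wild-type animals and another made from 6 ARR2PB-miR32 transgenic animals, all of the FVB/N strain (also spelled FBV/N in the labels) and all 6 months old. ARR2PB is a probasin-derived promoter that is active in prostate epithelium under androgen control, and it drives the microRNA miR-32 in the transgenic animals. The labels give the tissue of both pools as ventral prostate, while their collection text speaks of ventral or dorsolateral prostates. The same pair of pools was hybridised to 2 two-colour arrays, with the transgenic pool in Cy3 and the wild-type pool in Cy5 on array 1 and the dyes swapped on array 2, so each genotype has 1 replicate, the SD values are technical (n = 2 arrays) and no test or p-value is given.

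The rodent prostate consists of separate lobes, and each lobe secretes its own set of proteins into semen. The ventral lobe makes spermine-binding protein and the trypsin inhibitor Spink1, the dorsal and anterior lobes make the transglutaminase Tgm4, and the seminal vesicle, which arises from a different duct, makes the Svs proteins. At ejaculation Tgm4 cross-links the seminal vesicle proteins into the copulatory plug. Many of these genes depend on androgens, so their levels are read both as markers of the lobe a tissue came from and as a readout of secretory differentiation.

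A microRNA recognises messenger RNAs mainly through its seed, the bases near its beginning. The sequence of the microRNA that the transgene is named for is shown, since the labels tell the pools apart by that transgene. It is the RefSeq mature sequence (GRCm38.p6, minus strand), with the seed, bases 2 to 8, in capitals.
mmu-miR-32-5p: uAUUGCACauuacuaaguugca

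Of the listed genes, Tgm4 and Sval1 were higher in the transgenic pool and Ceacam10 was lower. Sval2, Svs2, Svs3a, Svs4, Svs5 and Svs6 were not well above background in either pool on either array, and Gsdma was well above background in the Cy3 channel alone. A gene counted as detected if the scanner software flagged its probe as well above background for 1 pool or both, on each of the arrays. The call of higher or lower asked for a mean log2 ratio of transgenic over wild type of 1 or more in size, and for both arrays to differ 1.5-fold or more the same way. By this rule 2 of the 3 detected members were higher, where 1.09% of all 13899 detected genes were higher, and 1 was lower, where 3.53% of all detected genes were. With 3 detected members these shares say little about the group, and the account below takes the genes singly.

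**Figure D1:**
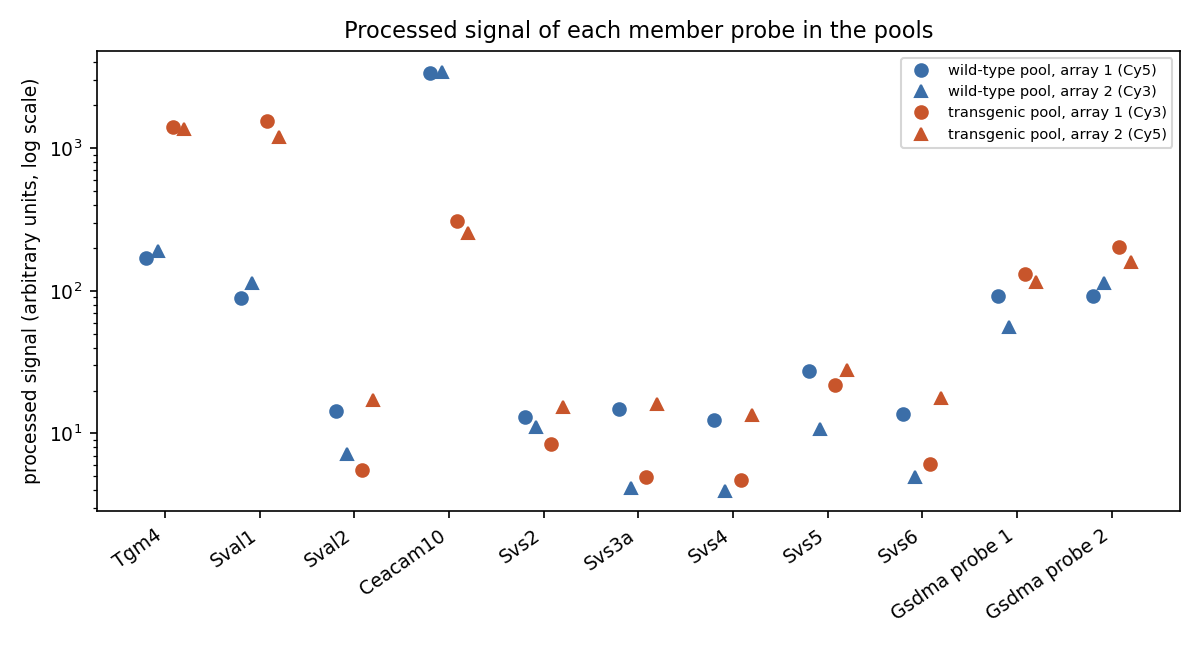
Processed signal of each probe of the 10 genes, in arbitrary units on a log scale, with the wild-type pool in blue and the transgenic pool in orange, circles for array 1 and triangles for array 2; signals are to be compared between pools within a probe, not between probes. In both dye orientations the transgenic pool lies above the wild-type pool for Tgm4 and Sval1 and below it for Ceacam10, while the probes of Sval2 and the Svs genes stay under 28 units with no separation of the pools.

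Tgm4, the transglutaminase that clots semen, gave a reading well above background in all 4 channels (probe A_51_P447894). Its processed signal, which the scanner software had corrected for background and dye, was 169 on array 1 and 189 on array 2 in the wild-type pool. In the transgenic pool the signal was 1407 and 1358. The pools were well separated in each dye orientation, and the arrays agreed closely within each pool. After normexp background correction and loess normalization the log2 ratio was 2.22 on array 1 and 2.02 on array 2. The mean was 2.12 ± 0.14 (SD, n = 2 arrays), or 4.36-fold higher in the transgenic pool. The scanner software's own ratio gave 2.95 ± 0.15, or 7.72-fold, and the series table deposited by the authors gave a mean of 2.88.

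Sval1, a seminal vesicle antigen-like protein related to the prolactin-inducible protein Pip, was also higher (probe A_51_P290387). Its processed signal was 88.7 and 114 in the wild-type pool on arrays 1 and 2. In the transgenic pool it was 1551 and 1205. The wild-type signal was well above background on array 2 alone, where that pool was in Cy3, so the ratio rests in part on a signal near background. The log2 ratio was 2.56 on array 1 and 2.29 on array 2, with a mean of 2.43 ± 0.20 (SD, n = 2 arrays), or 5.37-fold. The scanner software's ratio was 4.13 on array 1 and 3.399 on array 2, with a mean of 3.76 ± 0.52, or 13.6-fold. On array 2, where both pools were measured above background, the ratio was thus 2.29 by the fit and 3.399 by the scanner software, and the means also take in the unmeasured wild-type reading of array 1. The probe passed the detection rule through the transgenic pool, where its signal is high, and the authors' deposited series table was not used for it because it lists no value under this probe.

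Ceacam10, a secreted member of the carcinoembryonic antigen family that is known from seminal vesicle fluid, went the other way (probe A_52_P134195). Its processed signal was 3357 and 3447 in the wild-type pool on arrays 1 and 2. In the transgenic pool it was 307 and 253, and each of the 4 readings was well above background. The pools did not overlap, and the wild-type pool was the higher in both dyes. The log2 ratio was -2.34 on array 1 and -2.85 on array 2. The mean was -2.60 ± 0.36 (SD, n = 2 arrays), or 6.05-fold lower in the transgenic pool. The scanner software's ratio was -3.61 ± 0.22, or 12.2-fold lower, and the mean in the authors' deposited series table was -3.68.

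The sizes of these 3 ratios depended on how background was treated, while their directions and calls did not. The fitted ratios include an offset of 50 units that damps ratios of dim spots. With the offset set to 0, the mean log2 ratio was 2.62 for Tgm4, 3.10 for Sval1 and -3.07 for Ceacam10. With no background subtraction the ratios were smaller, at 1.69, 1.90 and -2.19. Over all detected genes the median distance of an array from the 2-array mean was 0.17 on the log2 scale, and the SD of the mean ratios was 0.52.

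**Figure D2:**
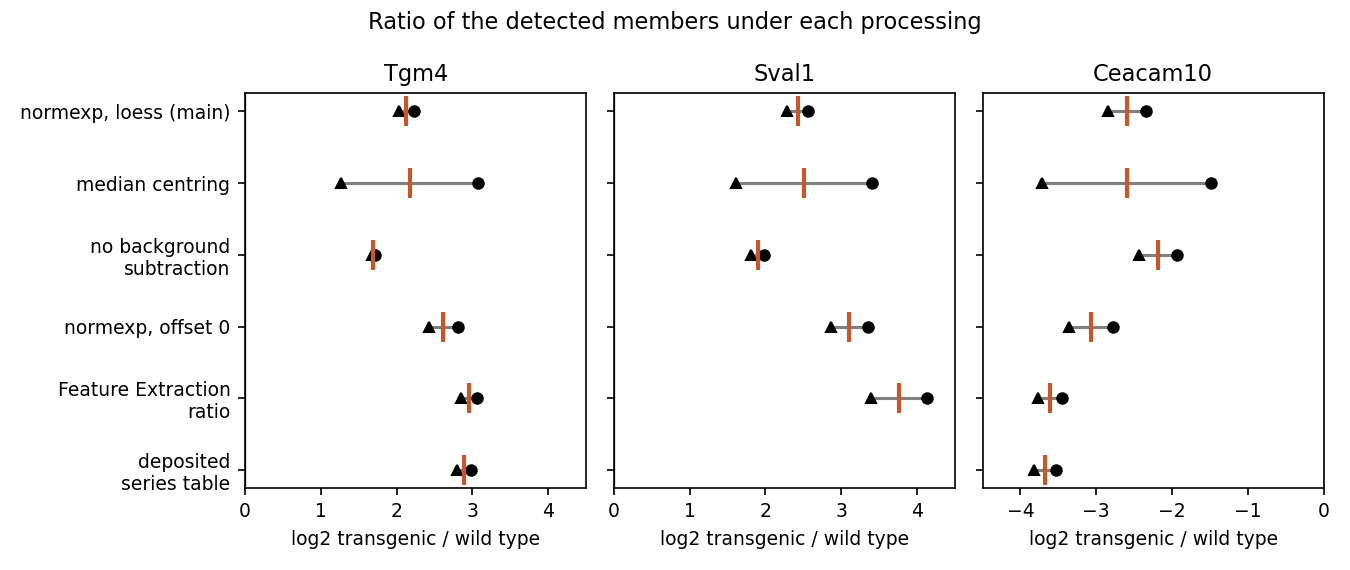
Log2 ratio of transgenic over wild type for Tgm4, Sval1 and Ceacam10 under 6 ways of processing, with circles for array 1, triangles for array 2 and an orange bar for their mean; the series table lists no value under the Sval1 probe. Every point lies on the same side of 0 as the main value, and the arrays lie farthest apart under median centring, where Tgm4 was at 3.07 on array 1 and 1.27 on array 2.

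The 5 Svs genes, whose products are made by the seminal vesicle, gave no reading well above background in either pool. Svs2, the main clotting protein of the seminal vesicle, had a processed signal of 13.1 and 11.03 in the wild-type pool and 8.39 and 15.4 in the transgenic pool. Svs4, an androgen-dependent secretory protein, stood at 12.4 and 3.98 in the wild-type pool and at 4.73 and 13.5 in the transgenic pool. For Svs4 the higher values are those of Cy5 in either pool, so they follow the dye and not the genotype. The probes of Svs3a, a clot protein, and of Svs5 and Svs6, which are small secreted proteins, had processed signals between 4.18 and 27.7 in the 4 readings of each probe. The Svs3a probe may also read Svs3b, a close copy for which no probe was matched.

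Sval2, the neighbour and close relative of Sval1, was not detected either. Its processed signal was 14.4 and 7.14 in the wild-type pool and 5.55 and 17.2 in the transgenic pool. No ratio is given for Sval2, since neither pool rose above background.

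The spots of these 6 genes were set against the 153 negative-control spots of each array, which are designed to bind no mouse RNA. Of the 24 readings of the 6 probes, 21 lay at or below the 95th percentile of the negative controls of the same channel and 3 lay above it. None was above the brightest negative control (0 of 24). In Cy3 on array 1, the transgenic pool gave spot signals of 31 to 43 for these probes, against a negative-control median of 31 and a 95th percentile of 36. In Cy3 on array 2, the wild-type pool gave 33 to 44, against a median of 32 and a 95th percentile of 42.2. Cy5 was the less sensitive dye, with 42.9% and 39.6% of non-control spots well above background on arrays 1 and 2, compared with 68.5% and 70.8% in Cy3. Each pool was read in Cy3 on 1 array, so the lack of signal for these genes does not rest on Cy5 alone. A level below the reach of the array is not shown to be absent.

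**Figure D3:**
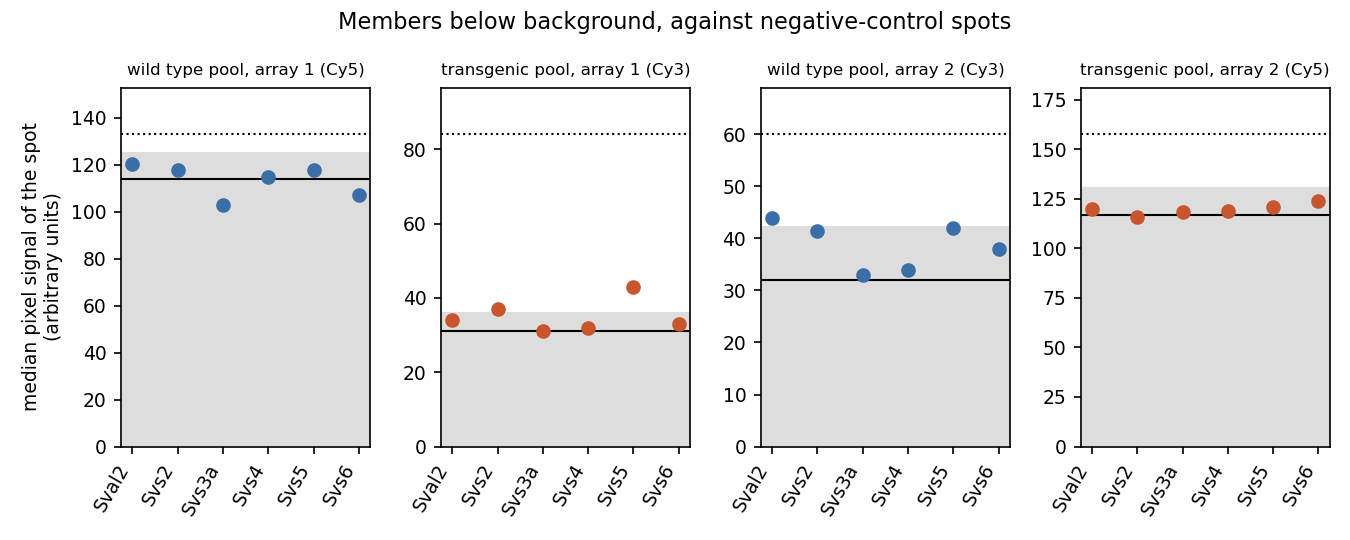
Median pixel signal of the spot, in arbitrary units, for the 6 genes with no reading above background, in each pool and array; the grey area runs up to the 95th percentile of the negative-control spots of that channel, the solid line is their median and the dotted line their maximum. The 3 readings above the grey area are Svs2 and Svs5 in the transgenic pool on array 1 and Sval2 in the wild-type pool on array 2, all in Cy3 and all below the dotted line.

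Gsdma, a member of the gasdermin family of pore-forming proteins that is known from skin and upper digestive tract epithelium, lay near the limit of detection. Its first probe gave processed signals of 92.0 and 55.8 in the wild-type pool and 131 and 116 in the transgenic pool. Its other probe gave 92.5 and 114 in the wild-type pool and 202 and 160 in the transgenic pool. Both probes were well above background in Cy3 on both arrays, once for each pool, and in Cy5 on neither, so Gsdma did not meet the detection rule. The log2 ratio was 0.31 ± 0.09 by the first probe and 0.37 ± 0.35 by the other (SD, n = 2 arrays). The fitted ratio was above 0 on each array for both probes, and it reached 1.5-fold by the other probe on array 1 alone. The scanner software's ratio was larger, at 0.51 and 1.05 on arrays 1 and 2 by the first probe (mean 0.78 ± 0.38, or 1.72-fold) and at 1.13 and 0.49 by the other (mean 0.81 ± 0.45, or 1.76-fold). Each of these ratios sets a Cy3 reading above background against a Cy5 reading that was not.

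Genes that flank the members in the RefSeq annotation gave a view of whether the differences extended along the chromosome. On chromosome 9, Tgm4 lies between Tmem42 and Zdhhc3, whose ratios were -0.09 ± 0.26 and -0.09 ± 0.61, so neither neighbour was called. Ceacam10 lies on chromosome 7 between Cd177 and Lypd4, and neither was detected. On chromosome 6, Sval2 and Sval1 follow Pip, which was not detected, and precede Sval3, which had no matched probe. The Svs genes form a run on chromosome 2 between the protease inhibitor genes Wfdc15b and Slpi. Wfdc15b stood at -0.37 ± 0.25 and was not called. Slpi, the next protein-coding gene after Svs5, had processed signals of 16442 and 15524 in the wild-type pool and 886 and 999 in the transgenic pool. Its log2 ratio was -3.90 ± 0.35 (SD, n = 2 arrays), and it was called lower beside a run of genes that were not detected. Gsdma lies on chromosome 11 between Gsdma2, which was not detected, and the proteasome gene Psmd3, at 0.05 ± 0.15.

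Upstream sequences are shown for the 3 detected members and for Sval2, since Sval1 and Sval2 are adjacent relatives and Sval2 was not detected. Each is the 250 bases before the start in the RefSeq table (GRCm38.p6, all on the plus strand), at chr9:123034491-123034740 for Tgm4, chr6:41951378-41951627 for Sval1, chr6:41860057-41860306 for Sval2 and chr7:24776917-24777166 for Ceacam10, where the table holds 2 starts and the first is used. Capitals mark TGTTCT on either strand, the core hexamer of androgen response elements, and TATAAA on the strand of the gene, the core of the TATA box.
Tgm4: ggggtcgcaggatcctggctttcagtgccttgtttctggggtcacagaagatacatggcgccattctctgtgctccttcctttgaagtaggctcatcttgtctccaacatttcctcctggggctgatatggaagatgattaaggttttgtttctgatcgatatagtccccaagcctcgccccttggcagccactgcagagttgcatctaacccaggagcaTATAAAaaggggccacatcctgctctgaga
Sval1: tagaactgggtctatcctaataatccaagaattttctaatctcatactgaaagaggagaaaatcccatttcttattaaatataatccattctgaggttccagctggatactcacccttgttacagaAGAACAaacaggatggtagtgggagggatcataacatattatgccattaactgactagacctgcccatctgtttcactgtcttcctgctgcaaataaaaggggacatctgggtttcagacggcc
Sval2: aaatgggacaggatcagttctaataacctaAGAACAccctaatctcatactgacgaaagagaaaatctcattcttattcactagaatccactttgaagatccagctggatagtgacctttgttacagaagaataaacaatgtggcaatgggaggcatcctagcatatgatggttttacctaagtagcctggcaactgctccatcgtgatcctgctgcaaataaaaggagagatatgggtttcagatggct
Ceacam10: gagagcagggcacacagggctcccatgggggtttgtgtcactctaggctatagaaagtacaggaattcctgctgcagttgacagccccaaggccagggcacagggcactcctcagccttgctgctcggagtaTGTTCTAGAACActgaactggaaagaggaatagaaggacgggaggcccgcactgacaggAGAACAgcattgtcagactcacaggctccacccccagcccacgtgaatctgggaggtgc

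The TATA hexamer begins 30 bases before the start of Tgm4, and the Tgm4 window holds no androgen hexamer (0 matches). The Ceacam10 window holds 3 androgen hexamers, which begin 118, 112 and 59 bases before the start, the first 2 side by side. The Sval1 and Sval2 windows hold 1 each, 124 and 220 bases before the start. Of all 32851 windows of this length in the table, 16.1% hold the androgen hexamer and 7.59% the TATA hexamer, so a single match is a common event. Aligned over 247 bases, the Sval1 and Sval2 windows are identical at 190, or 76.9%. Within the hexamer of Sval1, the Sval2 window differs by C131T and the Sval3 window by G128A, with positions counted from 1 at the 5′ end of the Sval1 window. The window of Sva, a further relative in the same run of genes, has the hexamer intact, and Sva was not detected. These matches describe letters in a window and were not tested as binding sites.

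A wider list of seminal vesicle products, which includes the 5 Svs genes described above, was also largely below background. Of the 11 products on it, 10 had a probe and 1 was detected, Eppin, a protease inhibitor of the epididymis that coats sperm. Ceacam10, which is also known from seminal vesicle fluid and was detected, was not on that list. Svs1, Pate4, Sva and Spinkl had no reading above background, as was the case for the 5 Svs genes described above. Eppin stood at 0.43 ± 0.11 and was not called, while the scanner software's ratio of 1.22 would be called higher. It passed the detection rule through the transgenic pool, since its wild-type signal was well above background on array 2 alone. On that array its ratio was 0.51 by the fit and 1.04 by the scanner software. The 10 products with a probe summed to 254 and 144 in the wild-type pool and to 310 and 359 in the transgenic pool, with Eppin alone detected. Of 5 genes of the seminal vesicle and its embryonic duct (Pax2, Pax8, Emx2, Lhx1 and Wfdc15a), none met the detection rule (0 of 5), although Pax2, Lhx1 and 1 probe of Emx2 were above background in Cy3 in both pools. Their processed signals summed to 271 and 139 in the wild-type pool and to 203 and 189 in the transgenic pool. Of the 271, 134 came from 1 probe of Emx2 that was not above background in the wild-type pool. These sums therefore do not show whether the pools differ.

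Markers of the neighbouring dorsolateral lobes did not follow Tgm4 and Sval1. Of 7 dorsolateral products, 6 had a probe and 5 were detected. Of these, 0 were higher and 1 was lower, beside 1.09% and 3.53% of all detected genes. Their median was -0.20, beside 0.01 over all detected genes. Probasin (Pbsn), a major secretion of the dorsolateral lobe, stood at 0.02 ± 0.50, and its processed signal was 117090 and 109565 in the wild-type pool and 110181 and 117733 in the transgenic pool. The apolipoprotein gene Apof stood at 0.05 ± 0.34 and the beta-microseminoprotein gene Msmb at -0.20 ± 1.11. C1rb stood at -0.70 ± 0.06 and was not called, with its transgenic signal well above background on array 1 alone. It would be called lower by the scanner software's ratio (-1.27), with an offset of 0 (-1.27) and by a 1.5-fold rule. The member of that list that was called is the matrix metalloproteinase Mmp7, at -2.44 ± 0.92. Summed over 6 of the dorsolateral products, the processed signal was 464684 and 395140 in the wild-type pool and 348328 and 398908 in the transgenic pool. The pools overlapped in this sum, most of which came from Msmb and Pbsn, so it says little about the other products. On the list of 7 anterior and dorsal products, 6 had a probe. The detected genes were Tgm4, Sval1 and Ceacam10 alone, so the share of that tissue in either pool was not tested.

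The ventral lobe products were present in both pools. All 7 were detected, 1 was higher and 4 were lower, beside 1.09% and 3.53% of all detected genes. Their median was -1.04, beside 0.01 over all detected genes. The summed processed signal was 3813907 and 2773587 in the wild-type pool and 1002013 and 1093168 in the transgenic pool. Spink1 was lower at -5.88 ± 0.21, from 1528490 and 1001080 in the wild-type pool to 17982 and 20866 in the transgenic pool. Without it the sum was 2285414 and 1772509 in the wild-type pool and 984031 and 1072302 in the transgenic pool. The antimicrobial peptide gene Defb50 stood at -0.27 ± 1.01 and Azgp1 at 0.39 ± 0.27, and neither was called. In the same list the protease inhibitor gene Wfdc3 was lower at -1.44 ± 0.55. The probes of Sbp and Sbpl, the spermine-binding proteins, had ratios of -1.35 ± 0.55 and -1.04 ± 0.38, and neither was called under median centring. Sbp was also not called on array 2 alone (-0.96), and Sbpl was not called with no background subtraction (-0.99), with an offset of 0 (-0.998) or on array 1 alone (-0.78). Spink8 was higher at 2.48 ± 0.01, in the same direction as Tgm4 and Sval1.

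In the gene families of the members, 1 further gene was called, as lower, where 3.53% of all detected genes were lower. Of 7 other transglutaminases, 6 had a probe and 3 were detected. Tgm2, the tissue transglutaminase, was lower at -1.04 ± 0.22 by its brightest probe, while its other probes gave -0.35 and -0.54 and array 2 alone gave -0.89, so the call rests on that probe and on array 1, and it was lost under median centring. The blood clotting transglutaminase F13a1 stood at -0.62 ± 1.29 with opposite signs on the arrays. Of 14 other CEACAM genes, 13 had a probe, 2 were detected and 0 were called. Ceacam1, an adhesion receptor of epithelia and leukocytes, stood at -0.21 ± 0.25, and Ceacam2 at -0.32 ± 0.44, beside -2.60 for Ceacam10. Of 8 other gasdermins, 6 had a probe, 4 were detected and 0 were called, with Gsdmd at -0.49 ± 0.09. Pip was above background in Cy3 alone and did not meet the detection rule.

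**Figure D4:**
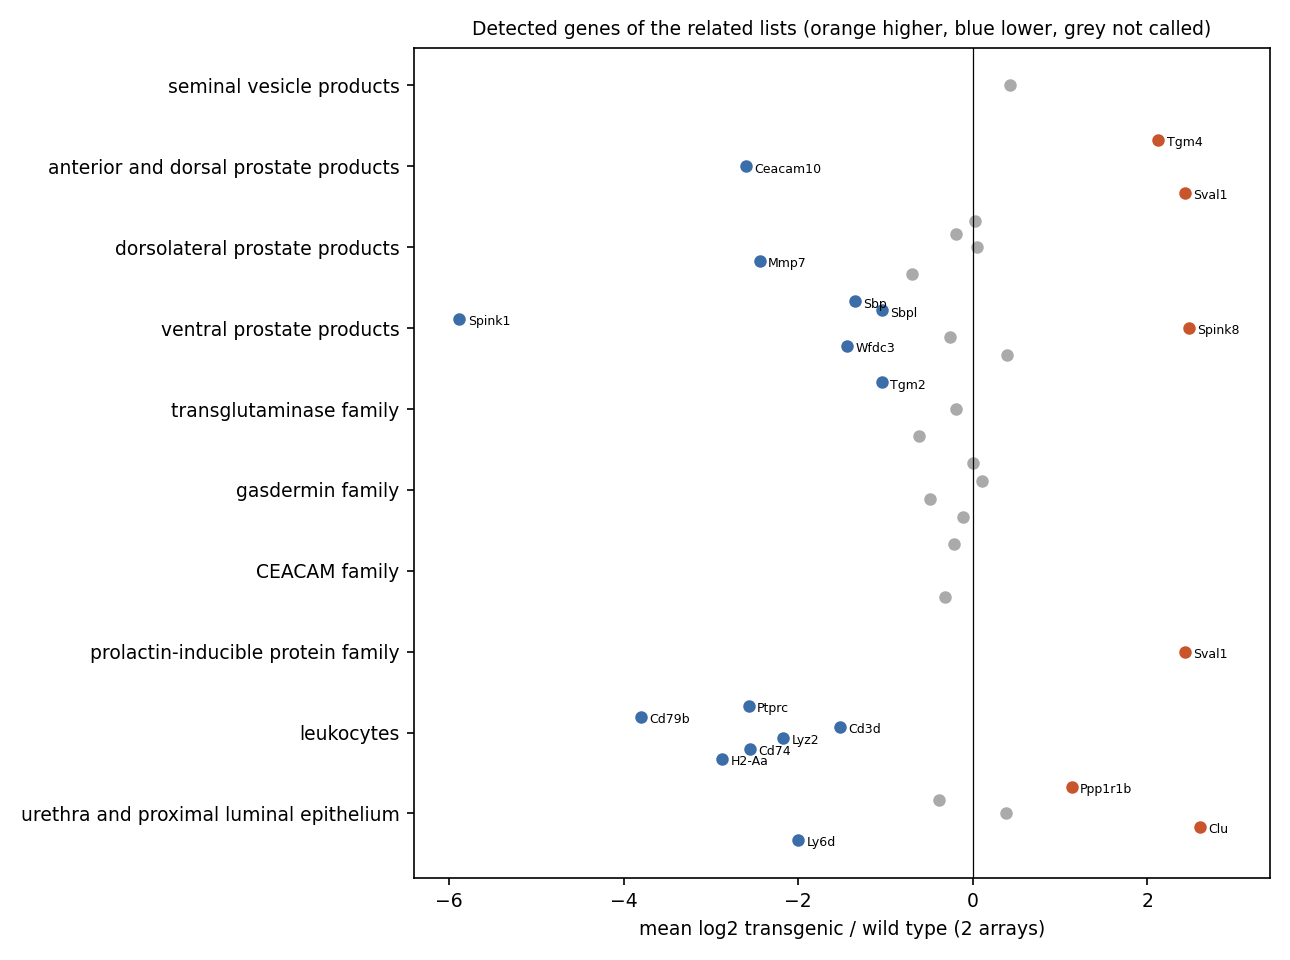
Mean log2 ratio of transgenic over wild type over the 2 arrays for the detected genes of 10 related lists, with called higher genes in orange, called lower genes in blue and the others in grey. Tgm4 and Sval1 lie at 2.12 and 2.43 and Ceacam10 at -2.60, while most genes of the dorsolateral list lie near 0 and all 6 leukocyte genes lie below -1.

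Some transcripts that mark other cell types differed between the pools beside these ratios. All 6 leukocyte markers examined were lower in the transgenic pool, where 3.53% of all detected genes were lower. They ranged from -1.52 for the T cell gene Cd3d to -3.80 for the B cell gene Cd79b. The others were Ptprc (-2.57), Cd74 (-2.56), H2-Aa (-2.87) and Lyz2 (-2.17). The other probes of Ptprc gave -1.12 and -1.004, so that the mean of its probes was -1.56, and the other probe of H2-Aa gave -3.44. For Cd3d and all probes of Ptprc, the transgenic signal was well above background on array 1 alone. They passed the detection rule through the wild-type pool, where their signal is high. Their mean ratios thus rest in part on a transgenic signal near background. On array 1 alone the ratio was -1.54 for Cd3d and -2.55 for the brightest Ptprc probe. The summed processed signal of the 6 markers was 45101 and 44366 in the wild-type pool and 5478 and 5519 in the transgenic pool, with 0 of 6 markers at 0. Most of this sum came from Cd74 and H2-Aa. Of 5 genes of the urethra and the proximal ducts, all were detected, Clu (2.60 ± 0.002) and Ppp1r1b (1.13 ± 0.45) were higher, and Ly6d (-2.001 ± 0.021) was lower. Over all detected genes, 1.09% were higher and 3.53% lower. Krt4 (-0.39 ± 0.41) and Psca (0.38 ± 0.09) were not called, so the 5 genes had no common direction. Ppp1r1b was not called on array 1 alone. The summed signal of the 5 genes was 94247 and 72250 in the wild-type pool and 386728 and 464625 in the transgenic pool, most of it from Clu. The part of these cell types in the ratios of Tgm4, Sval1 and Ceacam10 was not tested. In pooled tissue RNA, fewer cells of a type and less RNA in each cell cannot be told apart.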

How the data were processed

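Per the file headers, Agilent Feature Extraction 11.0.1.1 read the arrays, whose design is annotated to mm9. The deposited scanner files hold median pixel intensities for spots and for local background, processed intensities after background subtraction and dye normalization, and a log10 ratio of Cy5 over Cy3. The authors' deposited series table holds log2 ratios for 15511 probes; each column has a median of 0. Its columns differed from Feature Extraction's ratio, turned to transgenic over wild type, by a fixed shift (-0.08 and -0.05), which gave its scale and direction. The rule behind its choice of probes is unknown here.

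Median intensities were corrected by normexp (offset 50) and normalized by loess within each array in limma 3.58.1 (R 4.3.3), with control and outlier spots at weight 0, and outlier spots were left out of probe values. Ratios were turned to transgenic over wild type and averaged over the arrays. The brightest detected probe stood for a gene. The fit was tested on simulated data. Accessions were matched to RefSeq symbols (GRCm38.p6) for 27816 of 41174 probes, and the assembly served for names, gene order and the printed sequences. Every probe of the 10 genes is reported, and of each related list the called genes and up to 4 others. The genes and lists were chosen with earlier results of these data known. Per the labels, 100 ng of total RNA was labelled for each pool. The 2 arrays carry the same pair of pools and give technical spread alone. With 1 pool per genotype, the spread between animals was not measured.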

Additional observations from a re-analysis of the deposited data

How the results depend on the processing

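The directions of Tgm4, Sval1 and Ceacam10 were the same under each of the alternatives that measured them, and each stayed called there. For some alternatives this was fixed in advance. Each of these genes has 1 probe, so averaging probes, changing the detection filter or using a 1.5-fold rule could not alter its ratio. The number of members called higher was 1, not 2, in the authors' series table and where detection was required of both pools, since neither keeps Sval1. The number called lower was 1 under all of them. The median log2 ratio over the detected members, 2.12, is the value of Tgm4. It was 1.69 with no background subtraction, 2.95 with Feature Extraction's ratio and 2.62 with an offset of 0, an alternative chosen after seeing the data. It was -0.40 in the series table and -0.24 where both pools had to be detected, where Tgm4 and Ceacam10 alone remain, and 0.024 with no filter on detection, where the 7 undetected members enter. Leaving out either array gave a median from 2.02 to 2.22 and 2 members higher. Over all genes, the share of higher calls was 23.5%, compared with 42.9% on array 1 alone, 31.5% on array 2 alone and 32.1% with detection in both pools. Higher and lower genes numbered 151 and 491, compared with 309 and 938 by Feature Extraction's ratio, 225 and 770 with an offset of 0, 472 and 1077 by a 1.5-fold rule, 99 and 405 under median centring, 126 and 267 with detection in both pools, 450 and 599 on array 1 alone and 271 and 589 on array 2 alone. No paired analysis was possible because each genotype is 1 pool of RNA.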
